A study of Mus musculus with 3 samples.

Results

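Subcluster 4 of the follicular helper T cells (Tfh) is the group of cells that stands out for Klf2 and S1pr1, and it has been called naive or memory like. Its members are the rows that the authors' table of Tfh cells assigns to subcluster 4 of 9, matched by barcode to the count matrices. They are 948 of 13784 Tfh rows, out of 18693 rows for Tfh and follicular regulatory T cells (Tfr) together. WT replicate 1 gave 231 members, WT replicate 2 gave 224 and the knockout gave 493.

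The cells are follicular T cells of mouse spleen, sorted by surface markers of Tfh and Tfr cells 14 days after immunisation with liposomes that carried ovalbumin (OVA). All mice were immunised. The groups are wild-type mice (WT, 2 deposited samples) and mice with a knockout of Siglec-G in B cells (BKO, 1 sample). Siglec-G is a sialic acid receptor that dampens B cell signalling, and the T cells sorted here were not the cells targeted. The study asked how follicular T cells vary and are regulated when B cells lack this receptor. The labels give neither the Cre driver, the strain, the age nor the number of mice per library, and the protocol names spleens and lymph nodes where the tissue label names spleen. Batch 1 is the label of both WT replicate 1 and BKO, and Batch 2 that of WT replicate 2.

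RNA was counted as unique molecular identifiers (UMIs) with the 10x 3′ assay. The 2 WT samples are the same cells, since each of the 5554 barcodes in WT replicate 1 was found again in WT replicate 2. They are therefore 2 runs of 1 library, and 1 WT library stands against 1 BKO library. No difference between genotypes has a replicate check and no p-value is given. Members held 1217124 UMIs (WT run 1), 1947618 (run 2) and 3941716 (BKO), with median UMIs per cell of 4879, 8205.5 and 7504. BKO shared 13 barcodes of annotated cells with WT, and no BKO member shared one with a WT member. Values given in sets of 3 follow the order WT run 1, WT run 2 and BKO. Levels are UMI counts of the summed cells scaled to a common total (CPM), and the exact 95% intervals given with them cover counting error and nothing else.

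T cells that have not met antigen, and memory T cells between responses, circulate through blood and lymph. The transcription factor Klf2 keeps such cells quiescent and turns on S1pr1, the receptor for sphingosine-1-phosphate that lets T cells leave lymphoid organs. Tfh cells are built by the transcription factor Bcl6, stay in the B cell follicle through the chemokine receptor Cxcr5, and carry little Klf2, which is known to restrain their formation. Naive cells are usually told from memory cells by genes such as Ccr7 against Cd44 and the S100 proteins. Il7r was put among the memory markers here, and whether it parts memory from naive cells was not tested.

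Subcluster 4 held 6.20% of WT run 1 Tfh cells (5.45 to 7.02), 6.11% of WT run 2 Tfh cells (5.35 to 6.93) and 7.72% of BKO Tfh cells (7.07 to 8.40). The BKO share lay 1.56 percentage points above the mean of the WT runs. The intervals did not overlap, but they count cells. With 1 library per genotype they do not measure the spread between mice. The gates are not given per library, so a difference in the sort and a difference in the mice cannot be told apart. Other subclusters moved more: subcluster 5 held 9.63%, 9.90% and 0.172% of Tfh cells, with 11 cells in BKO, and subcluster 2 held 6.90%, 7.33% and 34.1%.

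The 2 runs allowed the assignment to be compared between runs, since each WT cell was placed once per run. Both runs read the same library, so agreement between them is not an independent check of the assignment. Of 247 WT barcodes put in subcluster 4 in either run, 208 were put there in both, which is 84.2% (63.1% to 93.0% for the other 8 subclusters). Those 208 are 90.0% of the members in WT run 1 (85.4 to 93.6) and 92.9% of the members in WT run 2 (88.7 to 95.9). Of the WT run 1 members, 14 were Tfr cells in WT run 2 and 8 were in another Tfh subcluster. A UMI of Foxp3, the factor that defines regulatory T cells, was seen in 0 of 231, 18 of 224 and 6 of 493 members (0%, 8.04% and 1.22%). The 0 of WT run 1 is not a bound on these cells, since WT run 2 read the same library more deeply and 208 of its members are the same cells. Among other Tfh cells the shares were 0.429%, 10.1% and 0.882%. Every Tfr cell in the table had a Foxp3 UMI, so the split into Tfh and Tfr rows itself limits these shares. Leaving out the members with a Foxp3 UMI changed each of the 4 main counts of called genes given below by less than 1.5-fold.

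The label was checked against markers. Klf2 (ENSMUSG00000055148, chromosome 8, 72319033 to 72321656, plus strand, mm10) stood at 515 (476 to 557), 466 (436 to 498) and 643 CPM (618 to 668) in members. In the other Tfh cells it stood at 71.0, 66.04 and 41.1 CPM. Members were thus at least 7.01-fold higher in each matrix, and their interval stayed clear of that of the other Tfh cells. S1pr1 (ENSMUSG00000045092, chromosome 3, 115710433 to 115715072, minus strand) stood at 278 (249 to 309), 297 (274 to 323) and 359 CPM (340 to 378) in members and at 61.8, 63.7 and 63.3 CPM in other Tfh cells. In BKO barcodes of at most 50 UMIs, which stand for free RNA, Klf2 was at 80.6 CPM and S1pr1 at 56.9 CPM. The clusters were made from these genes, so such contrasts describe the members and are no test.

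Both genes ranked first in subcluster 4 among the 9 Tfh subclusters in all 3 matrices. For Klf2 the next was subcluster 8 (301, 266 and 324 CPM), then subcluster 5 (256, 240 and 203 CPM), and the intervals of these neighbours overlapped in WT but those of subcluster 4 lay above them. Klf2 was lowest in subcluster 0 in both WT runs (14.0 and 16.6 CPM) and in subcluster 1 in BKO (19.3 CPM). For S1pr1 the 4 next subclusters, 5 to 8, lay between 89.3 and 119 CPM over the matrices with intervals that overlapped. Both genes thus set subcluster 4 apart from all others, and Klf2 was also above the remaining subclusters in 5 and 8.

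**Figure D1:**
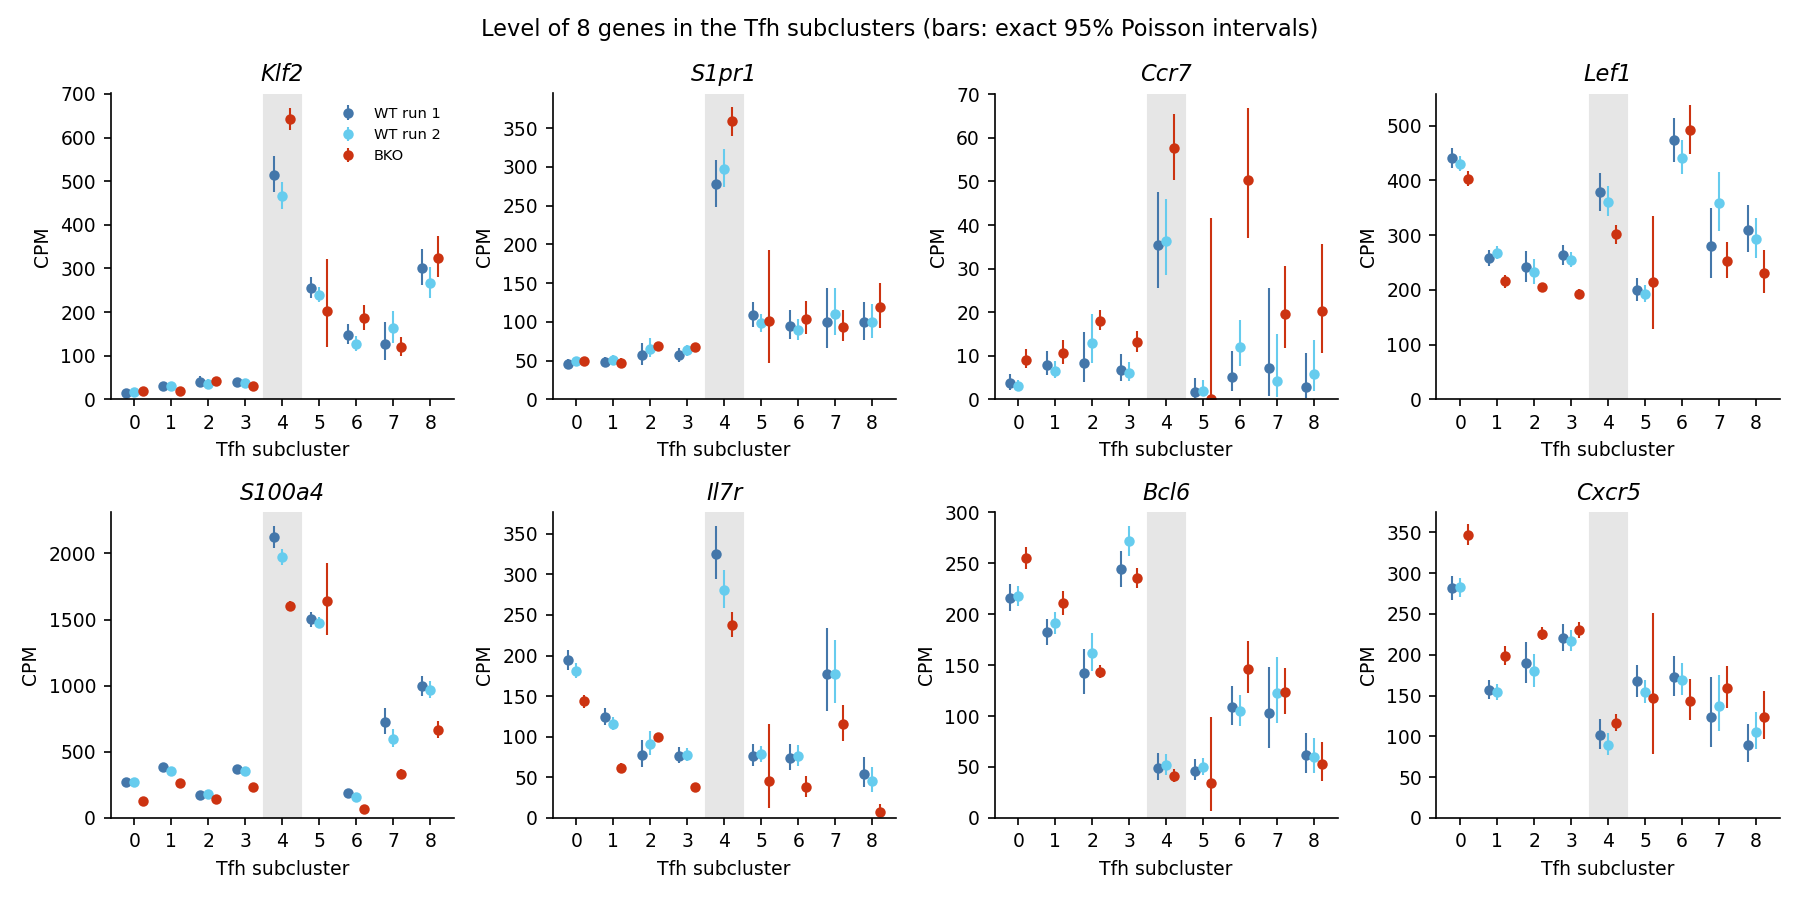
Level of 8 genes (CPM, linear axes from 0) in each of the 9 Tfh subclusters, with points for WT run 1, WT run 2 and BKO and bars for exact 95% Poisson intervals. The shaded column is subcluster 4: Klf2, S1pr1, Ccr7 and Il7r are highest there in each matrix, Lef1 is highest in subcluster 6, and Bcl6 and Cxcr5 are among the lowest in subcluster 4.

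Naive markers differed among themselves. Ccr7, the chemokine receptor of the T cell zone, stood at 35.3, 36.5 and 57.6 CPM in members against 5.54, 5.65 and 14.7 CPM, and its log2 ratios of 2.57, 2.59 and 1.94 were above those of Il7r in each matrix and above those of S100a4 and S100a6 in both WT runs. Dapl1, a gene of naive T cells, stood at 16.4, 20.5 and 52.0 CPM in members, and Igfbp4 at 13.1, 12.8 and 4.31 CPM. Ccr7, Dapl1 and Igfbp4 lay under the minimum of 50 CPM set for calls. Lef1, a transcription factor that naive cells and Tfh cells share, stood at 378, 361 and 301 CPM against 320, 317 and 253 CPM, within a factor of 1.5 of the other Tfh cells. Tcf7, its partner, stood at 521, 518 and 597 CPM in members against 529, 540 and 653 CPM.

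Of the 5 genes set as memory markers 3 were called higher. S100a4, a calcium-binding protein of memory T cells (ENSMUSG00000001020, chromosome 3, 90603771 to 90606045, plus strand), stood at 2122 (2041 to 2206), 1971 (1909 to 2034) and 1603 CPM (1564 to 1643) in members against 468, 447 and 194 CPM. S100a6, its neighbour in the genome, stood at 2150, 2149 and 3214 CPM against 629, 613 and 600 CPM. Il7r, the receptor for the survival cytokine interleukin-7, stood at 325, 281 and 238 CPM against 123, 119 and 85.7 CPM. All 3 were at least 1.5-fold higher in members in each matrix. Il2rb (178, 169 and 140 CPM against 153, 156 and 128 CPM) and Cd44 (239, 235 and 198 CPM against 266, 274 and 246 CPM), which activated cells share, were not.

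Depth differed between libraries, so each cell was thinned to 2500 UMIs to compare shares of cells. This left out 6, 0 and 3 members and 188, 56 and 63 other Tfh cells. A Klf2 UMI was then seen in 59.1% (52.4 to 65.6), 58.0% (51.3 to 64.6) and 64.9% (60.5 to 69.1) of members against 8.95%, 8.80% and 5.86% of other Tfh cells, and without thinning in 71.4%, 75.9% and 82.4% of members. An S1pr1 UMI was seen in 52.0%, 48.7% and 52.9% of members against 12.2%, 13.3% and 13.1%. Ccr7 gave 8.44%, 8.93% and 12.9% against 1.42%, 1.15% and 3.24%. Most members thus had a UMI of Klf2 or S1pr1 (74.7%, 72.3% and 76.1%), while few had one of Ccr7.

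**Figure D2:**
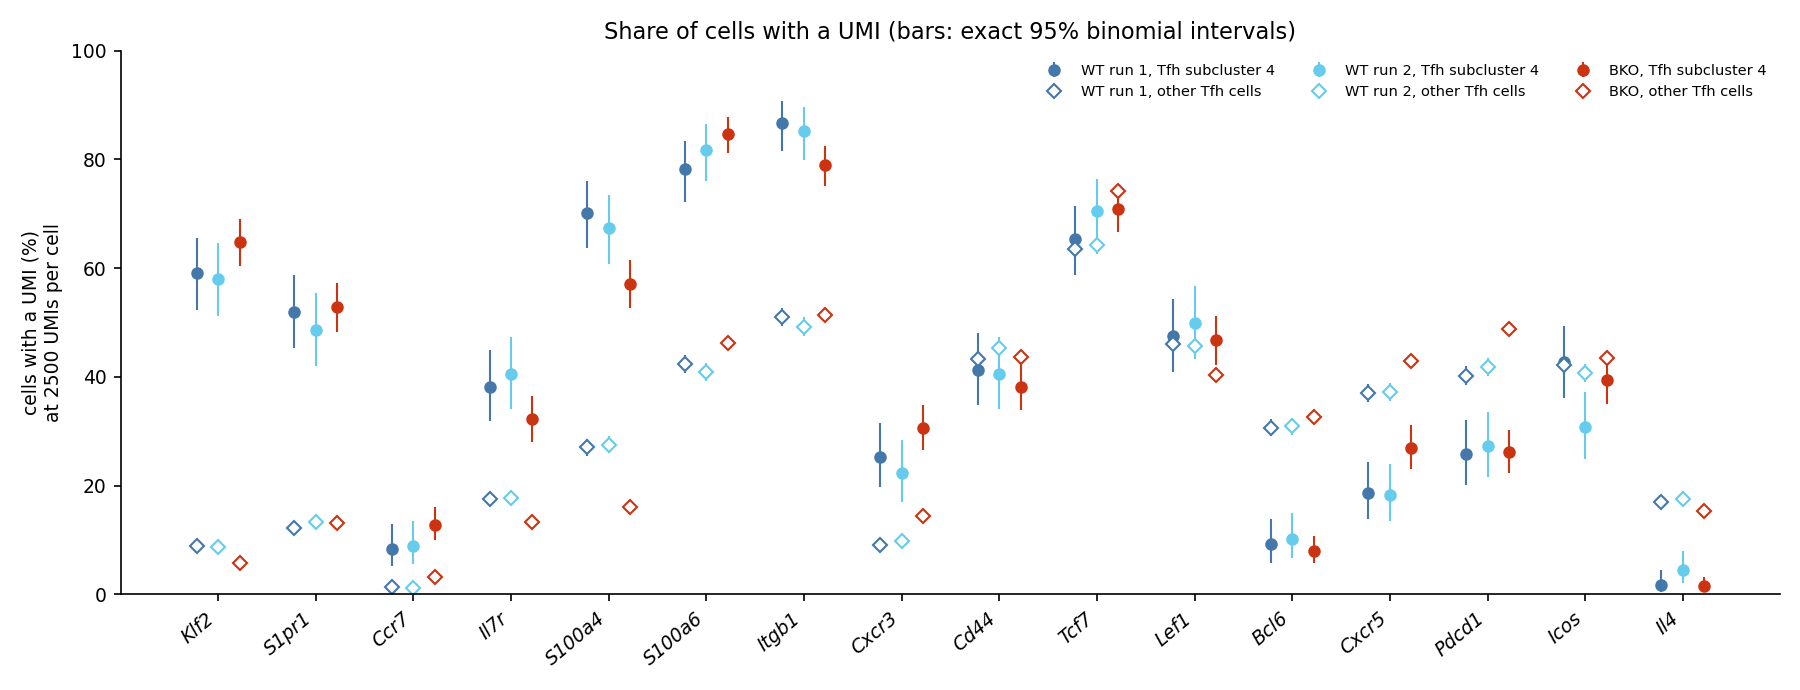
Share of cells (percent) with at least 1 UMI of each gene after thinning to 2500 UMIs per cell, with filled circles for subcluster 4, open diamonds for the other Tfh cells and exact 95% binomial intervals. Klf2, S1pr1, S100a4, S100a6 and Itgb1 set members apart upwards and Bcl6, Cxcr5, Pdcd1 and Il4 downwards, while Cd44, Tcf7 and Lef1 lie close in both groups.

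Counted cell by cell at this depth, most cells of both groups had a memory marker UMI. At least 1 UMI of the 5 memory markers (Il7r, Cd44, S100a4, S100a6 and Il2rb) was seen in 97.3%, 97.3% and 97.3% of members, against 84.4%, 84.5% and 82.7% of other Tfh cells. The median number of these UMIs per cell was 11, 9 and 10 in members and 2, 2 and 2 in other Tfh cells. A UMI of the 4 naive markers Ccr7, Lef1, Dapl1 and Igfbp4 with none of the memory markers was seen in 4 of 225, 5 of 224 and 10 of 490 members (1.78%, 2.23% and 2.04%), against 7.98%, 7.17% and 7.65% of other Tfh cells. Cells with that pattern were a smaller share of subcluster 4 than of the other Tfh cells, and the intervals did not overlap. The clusters were made from such genes, so this difference describes the members and is no test of the label. It came from the memory side: no memory marker UMI was seen in 2.67%, 2.68% and 2.65% of members against 15.6%, 15.5% and 17.3%. A naive marker UMI was not rarer in members, at 52.4%, 53.6% and 54.3% against 46.8%, 46.5% and 42.7%. These shares rested mostly on Lef1, which naive cells and Tfh cells share. A Lef1 UMI was seen in 47.6%, 50% and 46.7% of members against 46.0%, 45.7% and 40.4% of other Tfh cells. How far Lef1 also made up the pattern without memory markers was not tested. Among members with a Ccr7 UMI, an S100a4 UMI was seen in 9 of 19, 10 of 20 and 33 of 63 cells, so UMIs of both kinds were also counted in the same barcodes. Members without a Ccr7 UMI had S100a4 more often in each matrix, at 72.3%, 69.1% and 57.8%, but the intervals overlapped. Free RNA in BKO held S100a4 at 385 CPM, S100a6 at 985 CPM and Ccr7 at 22.5 CPM, against 194, 600 and 14.7 CPM in other Tfh cells, and its part in these shares was not tested. With Ccr7 and the S100 genes both higher, these markers do not settle between the naive and the memory side of the label, and the cells are called subcluster 4 below.

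**Figure D3:**
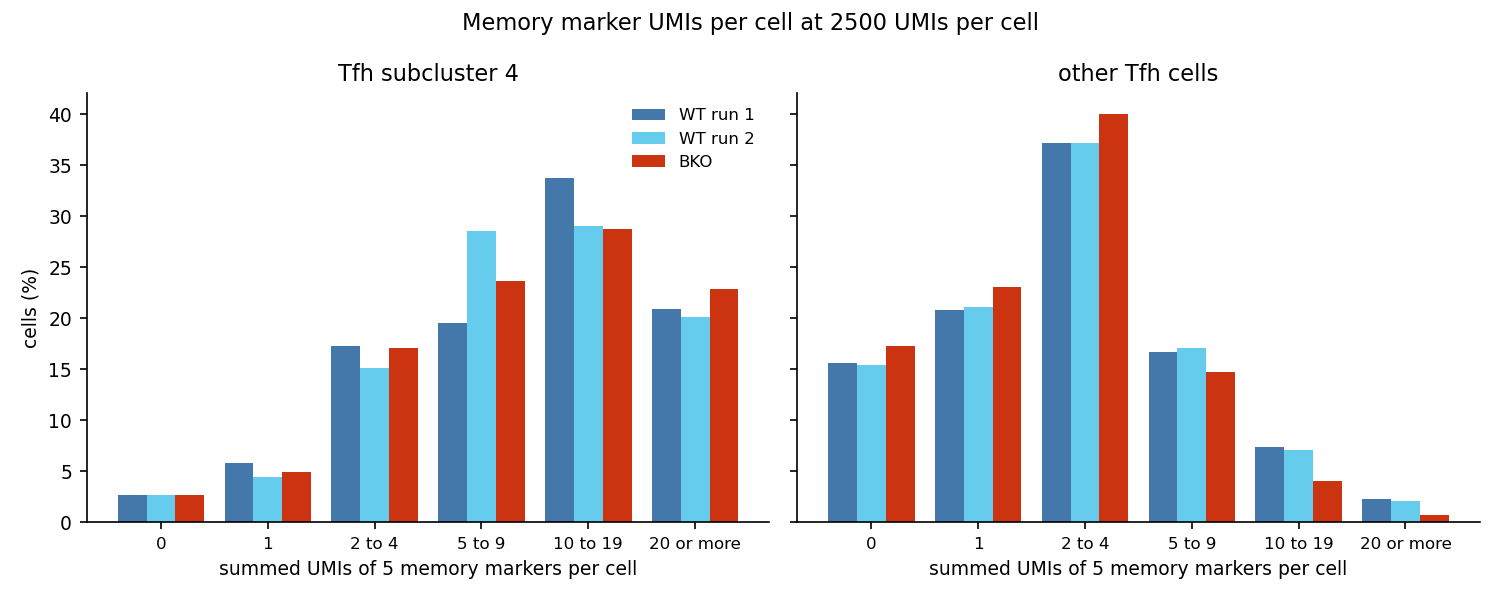
Share of cells (percent) by the summed UMIs of the 5 memory markers per cell, after thinning to 2500 UMIs, for subcluster 4 and for the other Tfh cells in WT run 1, WT run 2 and BKO. Members are spread over the classes from 2 to 4 UMIs upwards, with 20 or more in 20.9%, 20.1% and 22.9% of them, whereas in the other Tfh cells the class of 2 to 4 UMIs holds the most cells.

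Klf2 and S1pr1 tended to be seen in the same cells, among members and among the other Tfh cells. Among thinned members with a Klf2 UMI, S1pr1 was seen in 61.7% (52.8 to 69.9), 59.2% (50.3 to 67.8) and 64.2% (58.6 to 69.4). Among members without one it was seen in 38.0% (28.1 to 48.8), 34.0% (24.6 to 44.5) and 32.0% (25.1 to 39.5). The intervals did not overlap in any matrix. S100a4 showed no such split in WT, at 69.9% and 70.0% of members with a Klf2 UMI against 70.7% and 63.8% of those without, and in BKO it was 53.1% against 64.5%. Even members without a Klf2 UMI had S1pr1 more often than other Tfh cells without one (9.99%, 10.8% and 11.6%). Among other Tfh cells with a Klf2 UMI, S1pr1 was seen in 35.1%, 38.6% and 37.1%, so the pairing was not particular to members. S100a4 did split among the other Tfh cells. It was seen in 54.7%, 58.4% and 24.3% of those with a Klf2 UMI against 24.3%, 24.6% and 15.6% of those without.

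A second column of the authors' tables, a clustering at resolution 0.5, splits the members. Its cluster 8 held 169 of 231, 167 of 224 and 411 of 493 members (73.2%, 74.6% and 83.4%) and only 0.315%, 0.407% and 0.577% of other Tfh cells. Members in that cluster had Klf2 at 562, 503 and 702 CPM, and those outside it at 374, 350 and 351 CPM. Members outside it kept S100a4 at 2106, 1792 and 2093 CPM and had more Icos, the costimulator that Tfh cells need (380, 427 and 411 CPM against 227, 203 and 216 CPM inside). Cluster 8 of that column also held 35, 36 and 35 Tfr cells, with Klf2 at 644, 527 and 740 CPM against 38.7, 36.2 and 30.02 CPM in the remaining Tfr cells. S100a4 was at 2556, 2226 and 3520 CPM in these Tfr cells and Foxp3 at 251, 252 and 263 CPM, so cells of this Klf2 level were present in both classes.

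Across all genes, each was compared between members and the other Tfh cells of the same matrix. A gene was called where it was at least 1.5-fold apart the same way in all 3 matrices and its mean was at least 50 CPM. Of 3462 genes that met the minimum, 73 were higher in subcluster 4 (2.11%) and 87 were lower (2.51%). The median log2 ratio over these genes was -0.09, -0.08 and -0.11. Scaling by trimmed means (TMM) in place of total UMIs moved all log2 ratios up by 0.14, 0.17 and 0.15, and ratios below are on the scale of total UMIs with 0.5 CPM added.

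**Figure D4:**
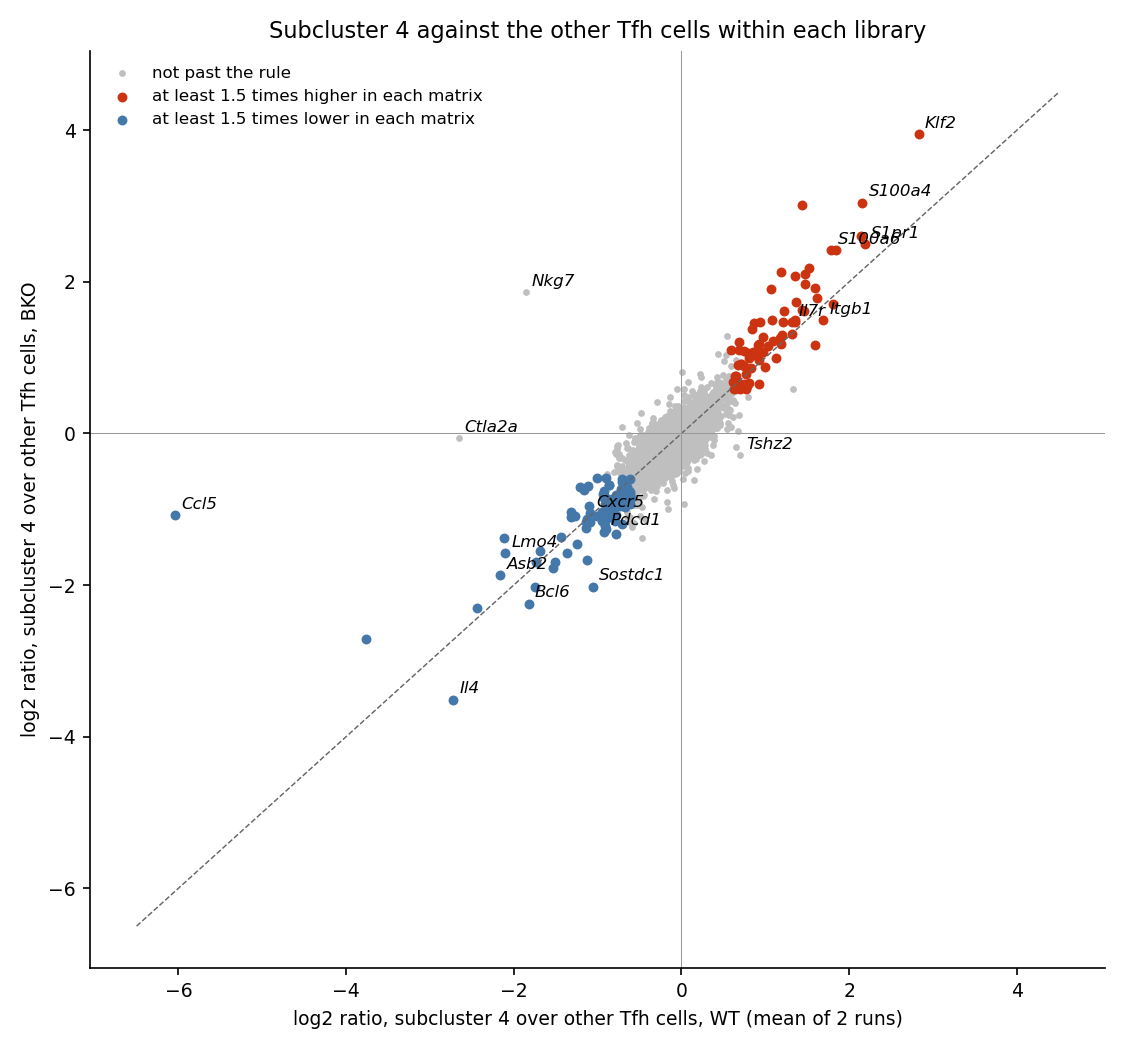
Log2 ratio of subcluster 4 to the other Tfh cells for each of the genes tested, WT (mean of the 2 runs) on the x axis and BKO on the y axis, with the 73 higher genes in red and the 87 lower genes in blue. Klf2, S100a4 and S1pr1 lie far up on both axes and Il4 and Bcl6 far down, while Ccl5, Nkg7 and Ctla2a lie far from the diagonal.

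Genes of homing and recirculation were the most one-sided of the lists. Of 24 such genes 16 could be called, and 11 were higher in subcluster 4 and 0 lower (2.11% and 2.51% over all genes). Their median log2 ratios were 1.11, 1.03 and 1.43 over the 16. The list holds the genes that chose the label, and all lists were drawn up with earlier results of these data known. Egress receptors were S1pr1 and S1pr4, a related receptor (70.7, 67.3 and 87.0 CPM against 32.5, 32.1 and 30.5 CPM). Adhesion molecules were Selplg (the ligand of selectins; 134, 150 and 131 CPM against 76.7, 81.6 and 50.2 CPM) and the integrin chains Itgb1, Itgb7 and Itga4. Itgb1, which pairs with many alpha chains, stood at 1392, 1342 and 1064 CPM against 426, 421 and 378 CPM. Itgb7, which pairs with Itga4 in gut homing, stood at 230, 236 and 241 CPM against 101, 101 and 97.0 CPM. Itga4 stood at 1225, 1205 and 1072 CPM against 629, 644 and 385 CPM. All 3 integrin chains were above the other Tfh cells in every matrix. Other called genes were Cxcr3, a chemokine receptor of Th1 and memory cells (log2 ratio 1.70, 1.48 and 1.17), and Rasgrp2 and Rasa3, which set integrin activation through Rap1 (1.40, 1.48 and 3.02 for Rasgrp2, 1.63, 1.61 and 1.78 for Rasa3).

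Because these genes stood together, their promoters were read from RefSeq on GRCm38.p6, the assembly behind mm10, over the 250 bases before the start that RefSeq gives. That start can differ from the one in the gene models used for positions here: for Klf2 it lies 29 bases further into the gene, so the last bases of its window, with its 1 match, fall past the start printed above. For Itgb7 the starts are 9 bases apart, and for Itga4 and Itgb1 they are the same. Windows were found for 8 of the 11 genes, and S1pr1 and Selplg were among those without one. The motif searched was CACCC on either strand (GGGTG on the other), the short core known for the zinc fingers of the Klf family, and its matches are in capitals. The 4 shown are Klf2 itself and the 3 integrin chains, at chr8:72318812-72319061 (plus strand), chr15:102231936-102232185 (minus), chr2:79255176-79255425 (plus) and chr8:128685404-128685653 (plus), each printed in the direction of the gene.
Klf2: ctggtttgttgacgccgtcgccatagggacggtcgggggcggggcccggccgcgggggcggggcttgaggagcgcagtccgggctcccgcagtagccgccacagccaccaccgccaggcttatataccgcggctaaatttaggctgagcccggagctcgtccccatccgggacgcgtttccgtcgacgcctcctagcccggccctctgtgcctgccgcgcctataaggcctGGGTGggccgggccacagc
Itgb7: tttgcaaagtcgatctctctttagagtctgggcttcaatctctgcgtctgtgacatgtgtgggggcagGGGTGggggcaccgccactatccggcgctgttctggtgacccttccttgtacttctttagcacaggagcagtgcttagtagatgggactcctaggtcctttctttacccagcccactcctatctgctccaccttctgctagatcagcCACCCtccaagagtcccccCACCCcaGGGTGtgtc
Itga4: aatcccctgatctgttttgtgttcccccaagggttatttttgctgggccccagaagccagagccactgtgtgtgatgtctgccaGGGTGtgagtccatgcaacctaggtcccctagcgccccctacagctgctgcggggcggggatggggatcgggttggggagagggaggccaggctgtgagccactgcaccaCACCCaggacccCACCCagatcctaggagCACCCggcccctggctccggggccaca
Itgb1: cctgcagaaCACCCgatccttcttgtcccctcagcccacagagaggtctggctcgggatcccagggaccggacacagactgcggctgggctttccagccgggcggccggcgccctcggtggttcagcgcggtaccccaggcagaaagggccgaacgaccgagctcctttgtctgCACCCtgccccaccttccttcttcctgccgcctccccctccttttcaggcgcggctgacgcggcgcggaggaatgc
The windows hold 1 match for Klf2, 4 for Itgb7, 4 for Itga4 and 2 for Itgb1, and that of Cxcr3 holds 0. The motif is common: it was in 53.0% of 20237 windows of the genome's genes, in 56.6% of 2761 windows of genes that could be called, in 65.5% of 55 windows of higher genes and in 56.1% of 66 windows of lower genes. A match is a string of letters, and no binding was measured.

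The memory and effector memory list followed. Of 24 genes 19 could be called, 11 were higher and 0 lower (2.11% and 2.51% over all genes), and the median log2 ratios were 1.13, 1.23 and 1.19. They were Il7r, the S100 genes S100a4, S100a6, S100a10 and S100a13, the membrane and cytoskeleton proteins Vim, Ahnak, Anxa2, Emp3 and Crip1, and Lgals1, a galectin. Vim, an intermediate filament protein, stood at 383, 393 and 475 CPM against 87.7, 87.2 and 77.6 CPM, although subcluster 8 held more (494, 519 and 747 CPM). Ahnak, a large scaffold protein, stood at 348, 346 and 306 CPM against 111, 119 and 80.5 CPM. Lgals1 stood at 826, 813 and 914 CPM against 331, 308 and 331 CPM. S100a4 was highest in subcluster 4 in both WT runs, and in BKO the 11 cells of subcluster 5 were level with it (1637 against 1603 CPM).

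Genes of naive cells and quiescence were mostly level. Of 28 such genes 17 could be called, and 3 were higher: Actn1, an actin crosslinker (log2 ratio 1.22, 1.15 and 1.18), Txnip, a brake on glucose uptake (0.80, 0.69 and 0.65), and Cdkn2d, an inhibitor of the cell cycle (0.72, 0.77 and 1.09). Over all genes 2.11% were called higher, so 3 of 17 is above that share. None was lower, and the median log2 ratios of the list were 0.13, 0.11 and 0.10. Ets1, Btg1 and Slfn2, the most abundant members besides Tcf7, lay between -0.23 and 0.36. Of the genes in no list, Arl4c, a small GTPase (114, 107 and 77.1 CPM against 29.4, 33.0 and 23.3 CPM), and Sidt1, a membrane protein (271, 278 and 269 CPM against 94.8, 95.9 and 58.8 CPM), were among the 10 highest by their smallest ratio.

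Tfh identity genes stood below the other Tfh cells. Of 27 genes 20 could be called, 0 were higher and 8 lower (2.11% and 2.51% over all genes), with median log2 ratios of -0.42, -0.46 and -0.58. Bcl6 (ENSMUSG00000022508, chromosome 16, 23965052 to 23988852, minus strand) stood at 49.3 (37.6 to 63.5), 51.9 (42.2 to 63.0) and 41.1 CPM (35.0 to 47.9) in members against 175, 186 and 197 CPM, at least 3.53-fold lower. Cxcr5 stood at 102, 89.3 and 116 CPM against 204, 204 and 243 CPM. Pdcd1, the inhibitory receptor PD-1 that is dense on Tfh cells, stood at 124, 133 and 130 CPM against 243, 245 and 320 CPM. The other 5 were Tox and Tox2, transcription factors of chronically stimulated and Tfh cells, Sostdc1, Il6st, the signalling chain of interleukin-6, and Ppp1r14b. With TMM, Tox and Il6st no longer passed the fold.

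Other Tfh genes did not pass the rule, but most leaned lower. Of the 20 genes that could be called, the 8 lower ones included, only 3, 2 and 3 had a log2 ratio above 0. The median over all genes was itself below 0 (-0.09, -0.08 and -0.11). Icos stood at 265, 257 and 249 CPM in members against 264, 261 and 297 CPM, and Slamf6, an adhesion receptor for B cells, at 765, 743 and 696 CPM against 600, 586 and 587 CPM. Maf, which drives interleukin-21, stood at 655, 721 and 883 CPM against 822, 969 and 1218 CPM. Free RNA held Bcl6 at 177 CPM in BKO, above the level in members. After thinning, a UMI of Bcl6, Cxcr5 or Pdcd1 was seen in 44.0%, 43.8% and 48.6% of members and in 69.2%, 70.4% and 77.6% of other Tfh cells. A UMI of Klf2 or S1pr1 together with one of these 3 was seen in 33.3%, 27.7% and 36.1% of members and in 10.4%, 10.4% and 11.7% of other Tfh cells. How much of the overlap is free RNA was not tested.

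Of the genes for help to B cells, 1 of 5 that could be called was lower, against 2.51% of all genes, and none was higher. It was Il4, the cytokine that supports germinal centre B cells (ENSMUSG00000000869, chromosome 11, 53602982 to 53618669, minus strand), at 14.0 (8.14 to 22.4), 15.4 (10.4 to 21.99) and 7.10 CPM (4.72 to 10.3) in members against 96.0, 104 and 86.3 CPM. This was at least 6.55-fold lower in each matrix. Il21, the other main Tfh cytokine, stood at 46.8, 39.5 and 47.7 CPM in members against 43.6, 49.6 and 74.0 CPM, and Cd40lg, the ligand that licenses B cells, at 153, 141 and 157 CPM against 187, 199 and 234 CPM. Neither passed the fold in all 3 matrices. The subclusters with the most Il4 were 0 and 3, at 184 and 155 CPM in WT run 1.

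Genes of the T cell receptor response were level or lower. Of 10 that could be called, Tnfrsf9 (4-1BB), an activation-induced costimulator, was lower (19.7, 23.1 and 31.5 CPM against 97.6, 91.5 and 82.7 CPM), and none was higher. Cd69, an early activation marker that holds cells in tissue, stood at 23.0, 32.9 and 44.4 CPM against 55.4, 53.3 and 62.4 CPM. The log2 ratios of Cd3g (-0.07, -0.08 and -0.09) and Trbc2 (-0.11, -0.11 and -0.10) were close to 0. None of the 6 cell cycle genes that could be called passed the rule. Of 11 interferon-induced genes 1 was higher (Ifi27l2a, log2 ratio 0.59, 0.71 and 0.67), and of 9 heat shock genes 1 was lower (Hspa5, a chaperone of the endoplasmic reticulum, -0.62, -0.83 and -0.85), a call that was lost with TMM. Over all genes 2.11% were called higher and 2.51% lower, so a single call in lists this short carries little weight. The remaining genes among the 10 lowest were Asb2, Pde3b, Lmo4, Setbp1, Plcb4, Ralyl and Itgb8. Lmo4, a transcriptional adaptor, stood at 46.0, 47.2 and 77.1 CPM in members against 193, 212 and 231 CPM, and Asb2, part of a ubiquitin ligase, at 23.0, 30.8 and 36.3 CPM against 123, 119 and 134 CPM.

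Summed markers of B cells, myeloid cells and NK cells were lower in members than in the rest, and those of red cells were higher at a low level. The summed level of 16 B cell genes was 292, 310 and 306 CPM in members against 654, 652 and 650 CPM, and Igkc, an immunoglobulin chain, stood at 16.4, 9.24 and 17.3 CPM against 177, 169 and 116 CPM. The 14 genes found of NK, NKT and gamma delta T cells summed to 26.3, 21.1 and 19.03 CPM against 83.5, 80.7 and 74.8 CPM, and 14 myeloid genes to 214, 205 and 241 CPM against 240, 232 and 280 CPM. Cd8a had no UMI in members, and the other CD8 gene, Cd8b1, stood at 9.04, 10.3 and 5.84 CPM in members against 9.02, 7.90 and 6.11 CPM. The 9 genes of red cells and platelets summed to 8.22, 6.67 and 16.7 CPM against 4.05, 4.90 and 8.63 CPM. Cd4 stood at 480, 478 and 404 CPM in members against 393, 395 and 359 CPM. The median share of mitochondrial UMIs was 3.77%, 3.79% and 3.69% in members and 3.87%, 3.85% and 4.28% in other Tfh cells.

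Within subcluster 4, BKO was then set against both WT runs. The call asked for a mean of 50 CPM or more over the 3 matrices and for BKO to lie 1.5-fold or more beyond each WT run. Of 3325 genes 13 were higher in BKO (0.391%) and 96 lower (2.89%). The WT runs themselves were at least 1.5-fold apart in 4 genes (0.120%), among them Bloc1s1. The median absolute log2 difference was 0.084 between runs and 0.215 between BKO and WT. Runs of 1 library share their cells, so their spread does not measure that between mice.

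Between genotypes 0 of 16 homing genes, 0 of 18 naive genes, 0 of 20 memory genes and 0 of 19 Tfh identity genes passed the rule. With 0.391% and 2.89% of all genes called, lists of this size would hold few or none in any case. Their median log2 ratios were -0.06, -0.03, 0.13 and -0.02 against -0.10 over all genes. Anxa2, of the memory list, was called higher with TMM (0.69) and with the intron trend off (0.70), and Sostdc1, of the Tfh identity list, lower with the trend off (-0.74) and with the WT members of both runs (-0.65). Klf2 was 1.31-fold the WT mean in BKO (log2 ratio 0.39) and S1pr1 1.25-fold (0.32). Their intervals lay above those of both runs, but these cover counting error only and not the spread between mice. S100a6 was 1.495-fold the WT mean (0.58) and missed the rule narrowly, and it passed with TMM (0.72) and with the WT cells placed in subcluster 4 in both runs (0.61) but not with the intron trend described below taken off (0.52), where Klf2 was at 0.22. S100a4 lay at a log2 ratio of -0.35, Itgb1 at -0.36 and Il7r at -0.35.

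The genes called lower in BKO were led by St3gal4, a sialyltransferase (ENSMUSG00000032038, chromosome 9, 35046576 to 35119268, minus strand). Its levels in members were 73.9 (59.5 to 90.9), 71.9 (60.5 to 84.8) and 26.4 CPM (21.6 to 32.0), so BKO was 2.73-fold below the WT mean. Tshz2, a zinc finger and homeobox factor, stood at 228, 194 and 83.7 CPM, and Il18r1, the receptor chain for interleukin-18 (92.8, 79.1 and 36.3 CPM), was highest in subcluster 4 among the subclusters in all 3 matrices. Other genes named on this side were Nebl, Ssbp2, Hipk2, Csgalnact1, Smurf2 and Zfhx2, with log2 ratios from -1.25 to -0.98. List members called lower were Cd200r1, an inhibitory receptor (-0.84), Nrp1, a receptor of regulatory T cells (-0.67), and Pfkfb3, an activator of glycolysis (-0.62), of which Nrp1 and Pfkfb3 no longer passed with TMM or with the correction for intron length given below. In the other Tfh cells St3gal4, Nebl and Il18r1 had log2 ratios of -0.92, -1.74 and -1.43.

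The genes called higher in BKO were fewer and the differences smaller. Lmo4 stood at 46.0, 47.2 and 77.1 CPM, and Pim1, a survival kinase induced by cytokines, at 60.0, 64.7 and 98.2 CPM. Tesc, a calcium-binding protein, stood at 92.8, 87.3 and 144 CPM. These 3 lay above both runs by 1.5-fold or more, with log2 ratios of 0.72, 0.65 and 0.67. Ndufb6, Spint2 and Slc25a11 were also called (0.75, 0.69 and 0.65). Bloc1s1 stood at 40.3, 67.8 and 115 CPM, and so differed between the WT runs as well. Of the 13 called, 5 were unnamed models or ribosomal copies.

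The calls moved with intron length. The WT counts come from a later version of Cell Ranger than the BKO counts, and the sources used here do not say whether either counted introns. The median log2 ratio of BKO to WT was -0.35 over 557 genes with more than 100 kb of introns and 0.15 over 475 genes with less than 3 kb. Of the 96 lower genes 53 had more than 100 kb and 1 less than 3 kb, and of the 13 higher genes 8 had less than 3 kb. With the median of each of 30 bins of intron length taken off, 23 genes were higher and 24 lower, of which 8 and 19 were among the calls above. St3gal4, Tshz2, Il18r1, Nebl, Ssbp2, Hipk2, Csgalnact1, Smurf2 and Zfhx2 stayed lower, St3gal4 at -1.15 and Tshz2 at -0.92, while Pim1 and Slc25a11 no longer passed. Scaling moved the balance too: higher genes were 11.9% of the calls on total UMIs, 53.8% with TMM (43 higher and 37 lower, a shift of 0.14 in log2) and 48.9% with the intron trend off. Genotype, software version and library cannot be told apart.

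**Figure D5:**
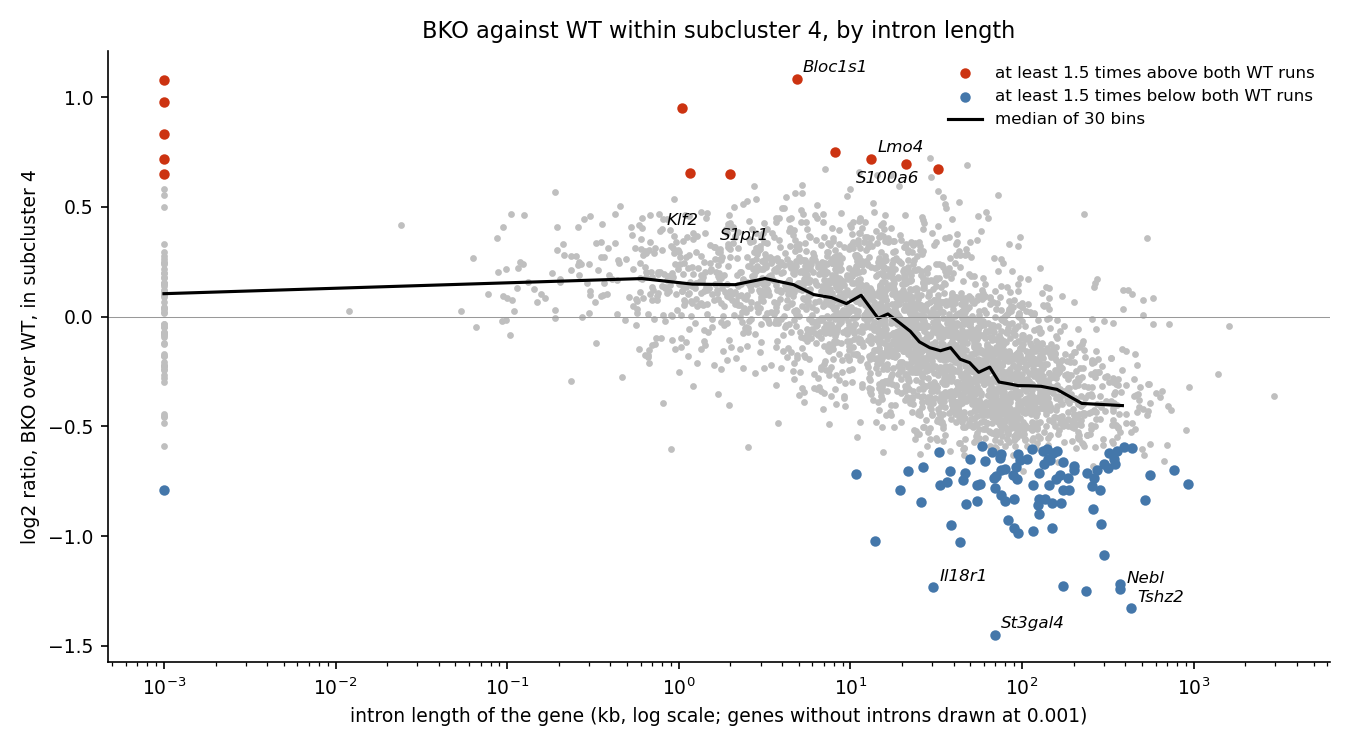
Log2 ratio of BKO to WT within subcluster 4 for each gene tested against the length of its introns (kb, log axis, genes without introns drawn at 0.001), with called genes in color and the medians of 30 separate bins joined by a line. The line falls from short to long introns, most lower calls lie at the long end, and Il18r1 and St3gal4 lie well below the line.

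The same rule applied to the other Tfh cells called 12 genes higher and 90 lower of 3606. Of the calls in subcluster 4, 4 of 13 higher genes and 25 of 96 lower genes were also called there in the same direction, which is 4 of 12 and 25 of 90 of the calls in other Tfh cells. Klf2 ran the other way in the other Tfh cells, with a log2 ratio of BKO to WT of -0.73 where members had 0.39, and so did Rasgrp2 (-1.33 and 0.25) and Nkg7, a protein of cytotoxic granules (-3.47 and 0.25).

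A ratio within a library compares cells counted the same way, and so the contrast of members with other Tfh cells was compared between genotypes. It was larger in BKO by 1.5-fold or more beyond both runs for 22 of 3462 genes (0.635%) and smaller for 14 (0.404%). The largest differences were those of Ccl5 (4.96 in log2), Nkg7 (3.72), Ctla2a (2.59), Rasgrp2 (1.58) and Klf2 (1.12). For Ccl5, a chemokine of effector cells, members stood at 29.6, 40.6 and 15.98 CPM, while other Tfh cells stood at 2358, 2267 and 34.3 CPM. Nkg7 stood at 69.8, 67.8 and 81.9 CPM in members and at 261, 241 and 22.2 CPM in other Tfh cells. For both genes the genotypes were further apart in the cells compared with than in the members.

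Subcluster 5, which held the most Ccl5 (22037, 20144 and 11219 CPM) and Nkg7 (1982, 1772 and 1050 CPM) and had 359 and 363 cells in the WT runs and 11 in BKO, is part of the reference. With each of the other subclusters weighted equally, the difference was 0.38 for Klf2, 0.01 for Ccl5, -0.55 for Ctla2a, 0.92 for Rasgrp2, 1.27 for Nkg7 and 0.02 for S100a4. With subclusters 1, 5, 6 and 8 left out of the reference, it was 0.14 for Klf2, 2.49 for Ccl5, 0.93 for Nkg7 and 0.35 for Rasgrp2. The counts became 14 higher and 17 lower in the first case and 8 higher and 8 lower in the second.

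On the lower side the members' own levels were lower in BKO. Tshz2 was above the other Tfh cells in WT (228 and 194 CPM against 128 and 130 CPM) and below them in BKO (83.7 against 102 CPM), a difference of -0.99 that stayed at -0.95 and -0.80 with the other references. Slc24a3, an ion exchanger, stood at 45.2, 50.3 and 24.4 CPM in members against 64.2, 68.3 and 64.3 CPM (-0.91, and -0.91 and -0.64 with the other references). Sostdc1, a secreted antagonist made by Tfh cells, stood at 114, 111 and 74.6 CPM against 245, 225 and 304 CPM (-0.97, and -0.71 and -0.47). Tnc, a matrix glycoprotein, had a difference of -0.97, and of -0.53 and -0.53 with the other references. The mean difference of Tshz2 and Slc24a3 stayed beyond 1.5-fold with both other references, and that of Sostdc1 and Tnc did not. With 1 library per genotype these differences have no test.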

How the data were processed

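For each of the 3 samples the authors deposited a matrix of UMI counts that were not normalized. Their 2 cell tables, also as deposited, give each Tfh or Tfr cell its UMI total, its percent of mitochondrial UMIs and its cluster numbers. Per the submitters' processing notes, Cell Ranger and mm10 were used. Version 7.0.1 made the WT counts and version 4 the BKO counts, per the file headers. The WT matrices hold called cells and that of BKO holds 1275404 unfiltered barcodes. The matrices hold 32518538, 54059000 and 85225125 UMIs. In the deposited tables the WT replicate 2 cells carry fewer UMIs than in the matrix (median 5322 against 8205.5 in members).

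Members were matched by barcode, no further cell filter was set, and no doublet caller was run. The design had assumed separate WT libraries. They share their cells, so no count model was fitted and rules of size were used: 1.5-fold, a mean of 50 CPM and 0.5 CPM added in ratios. Intervals are exact Poisson (levels) and Clopper-Pearson (shares). Gene positions and intron lengths came from GRCm38 gene models found for 32158 of 32285 features. Genes were named by rule: 18 marker genes, the 10 with the largest smallest fold per direction in both main comparisons, the 5 per direction for the difference of contrasts, and from each of 23 lists those called and the 4 of highest level. Unnamed, ribosomal, mitochondrial, receptor and immunoglobulin segment genes were left out of the ranked parts. Some genes that the rule or the marker lists name are not reported here, and 1 of them was taken out of the counts of naive marker UMIs. Members and lists were chosen with earlier results of these data known.

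Alternatives were TMM factors from edgeR 4.0.16 in R 4.3.3, other minimums, folds and pseudocounts, other references, cells placed in subcluster 4 in both runs, removal of cells with a Foxp3 UMI, each WT run alone, and a correction for intron length by the median of each of 30 separate bins. Scripts used Python 3.11.15, numpy 2.4.6, pandas 2.3.3 and scipy 1.17.1, and were tested on simulated counts.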

Additional observations from a re-analysis of the deposited data

Results flagged for a closer look

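Among the named genes whose contrast of subcluster 4 with the other Tfh cells differed by 1.5-fold or more between genotypes, 4 ran one way in both WT runs and the other way in BKO. Genes with smaller differences, such as St3gal4 and Tesc, changed sign as well. None of these differences was tested. For Tshz2 the log2 ratio was 0.82 and 0.58 in WT and -0.29 in BKO, a difference of -0.9878. It also changed sign with the other subclusters weighted equally (1.03, 0.66 and -0.11) and without subclusters 1, 5, 6 and 8 (0.75, 0.51 and -0.17). For Tnc it was 0.05 and 0.02 in WT, close to 0, and -0.93 in BKO, a difference of -0.9673, and without subclusters 1, 5, 6 and 8 it was below 0 in all 3 matrices (-0.64, -0.65 and -1.17). For Nkg7 it was -1.90 and -1.82 in WT and 1.86 in BKO, a difference of 3.722. The change of sign of Nkg7 was not kept with either other reference (-2.46, -2.36 and -1.13 with equal weights, 1.85, 1.75 and 2.73 without the 4 subclusters). For Hmgb2, a chromatin protein that is high in dividing cells, it was -0.56 and -0.40 in WT and 0.27 in BKO, a difference of 0.7447. That of Hmgb2 was not kept either (-1.35, -1.33 and -0.96 with equal weights, 0.04, 0.11 and 0.49 without the 4 subclusters).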

How the results depend on the processing

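Counts of genes depended on settings, and the cause was not tested unless the setting itself tests other genes. The genes higher in BKO in Tfh subcluster 4, 13 in number, became 43 with TMM, 28 with library sizes without ribosomal, mitochondrial and receptor genes, 36 at a minimum of 20 CPM, 2251 with none, 0 at a fold of 2 and 23 with the intron trend off. The genes lower in BKO in Tfh subcluster 4, 96 in number, became 37 with TMM, 266 at 20 CPM, 2133 with no minimum, 8 at a fold of 2 and 24 with the intron trend off. With 1 WT run left out they were 24 to 45 higher and 129 to 156 lower, where fewer runs have to be passed. The genes higher in subcluster 4 than in other Tfh cells, 73 in number, became 523 with no minimum and 34 at a fold of 2. The genes lower in subcluster 4 than in other Tfh cells, 87 in number, became 50 with TMM, 184 at 20 CPM, 6024 with no minimum and 26 at a fold of 2. The difference of contrasts, 22 higher and 14 lower, gave 14 higher with equal weights, 8 higher and 8 lower without subclusters 1, 5, 6 and 8, and 25 to 42 higher and 22 to 25 lower with 1 WT run left out. The BKO share stayed 1.46 to 2.09 percentage points above WT. Of the 131 named genes none reversed in either comparison with TMM, a pseudocount of 1 CPM or members of both runs. No paired analysis was possible because the WT runs are 1 library and each genotype has 1. WT run 1 members had the fewest UMIs, 1217124, which limits genes of low level most.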
